A study of Mus musculus with 114 samples.

Results

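The expression of 9 transcription factors that define the fat cell was followed in isolated adipocytes of mice on chow or high fat diet. These were Pparg, Rxra, Nr1h3, Cebpa, Cebpb, Klf15, Ebf1, Ebf2 and Zfp423, chosen by gene symbol out of 29132 genes in the table, and all 9 were found. Perigonadal fat of male C57BL/6J mice was digested with collagenase and the floating fraction was taken as adipocytes. Both diets began when the mice were 6 weeks old, the controls on chow (CD) and the others on a diet with 60% of its energy from fat (HFD), and all mice fasted for 6 h before harvest. The 6 groups were CD and HFD mice after 8 weeks (6 of each), after 20 weeks (6 of each) and after 34 weeks (8 CD, 6 HFD). Mice of one time had the same age on both diets, while mice of later times were also older. Values are polyA RNA-seq reads scaled to 1000000 per mouse (CPM), with 1 value per mouse.

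PPARG is the nuclear receptor that drives fat cell formation and keeps the mature cell in its state. It binds DNA as a heterodimer with RXRA, the partner that it shares with NR1H3, the oxysterol receptor LXR alpha. C/EBP beta acts early and induces Pparg and Cebpa, whose products then maintain each other. KLF15 is a zinc finger factor induced by fasting and glucocorticoids, EBF1 and EBF2 bind many fat cell enhancers next to PPARG, EBF2 marks precursors and brown or beige fat, and ZFP423 commits precursors to the white fat lineage.

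The start sites of Pparg, Cebpa and Klf15 are shown because these 3 genes moved together at 34 weeks. RefSeq (GRCm38.p6) gave windows before the start of 8 of the 9 genes, all except Ebf2. Each line holds the 250 bases before a start, on the strand of the gene, and capitals mark a match on either strand to TTGCNNAA, the core bound by C/EBP factors, or to AGGTCA, the hexamer bound by nuclear receptors.
Pparg, the most downstream of its starts, plus strand, chr6:115421816-115422065: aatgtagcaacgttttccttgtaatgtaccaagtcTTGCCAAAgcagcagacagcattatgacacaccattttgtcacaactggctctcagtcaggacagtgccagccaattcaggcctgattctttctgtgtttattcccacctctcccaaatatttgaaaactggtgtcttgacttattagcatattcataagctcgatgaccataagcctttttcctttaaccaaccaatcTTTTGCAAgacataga
Cebpa, plus strand, chr7:35119043-35119292: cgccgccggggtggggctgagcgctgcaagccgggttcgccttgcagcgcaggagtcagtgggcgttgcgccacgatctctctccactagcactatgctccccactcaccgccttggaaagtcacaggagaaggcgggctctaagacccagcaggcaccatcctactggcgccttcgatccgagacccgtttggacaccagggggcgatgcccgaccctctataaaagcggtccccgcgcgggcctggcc
Klf15, plus strand, chr6:90462326-90462575: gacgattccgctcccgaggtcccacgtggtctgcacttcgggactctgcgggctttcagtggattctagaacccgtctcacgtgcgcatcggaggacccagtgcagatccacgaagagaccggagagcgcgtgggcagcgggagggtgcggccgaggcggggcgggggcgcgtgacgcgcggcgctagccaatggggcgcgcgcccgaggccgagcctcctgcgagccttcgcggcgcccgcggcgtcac
The Pparg window held TTGCNNAA matches at -215 and -16 from the start, while those of Cebpa and Klf15 held neither motif. The windows of the other Pparg starts, not printed, held no TTGCNNAA and 1 AGGTCA each, at -28 and -9. Of all 32851 mouse windows of this length, 9.56% held TTGCNNAA and 14.02% held AGGTCA. A match describes the letters only.

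All 9 genes are protein coding. In GRCm38 (GENCODE M21) Pparg lies at chr6:115360951-115490399, Klf15 at chr6:90462576-90475238, Cebpa at chr7:35119293-35121928, Cebpb at chr2:167688915-167690418, Rxra at chr2:27676440-27762957, Ebf1 at chr11:44617317-45008091 and Ebf2 at chr14:67233292-67430918, all on the plus strand, while Nr1h3 at chr2:91184061-91202834 and Zfp423 at chr8:87661810-87959595 lie on the minus strand. Ebf2 shares 424 exon bases with the antisense gene Gm10860 and Cebpa 51 with Gm45091, while Nr1h3 shares 34 with Gm13783 on its own strand. The paper used a stranded library protocol and counted unambiguous overlaps, but does not say whether the counting used strand. Without strand, reads in the shared bases of opposite genes cannot be told apart.

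All 9 genes were expressed in every mouse. Per kb of exon, Cebpa had the highest mean level over the 38 mice (223 CPM per kb), followed by Cebpb (89.1), Pparg (75.3), Nr1h3 (45.9), Rxra (42.3), Klf15 (14.7), Ebf1 (13.9), Zfp423 (8.90) and Ebf2 (4.64 CPM per kb). The fraction carried the defining markers of adipocytes: Adipoq, which encodes adiponectin, lay between 2068 and 6653 CPM in all mice, and no mouse was at 0 for Plin1, the lipid droplet coat protein perilipin. Each mouse had between 9275711 and 15480388 reads on genes, and at 8 weeks all HFD mice were deeper than all CD mice.

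**Figure D1:**
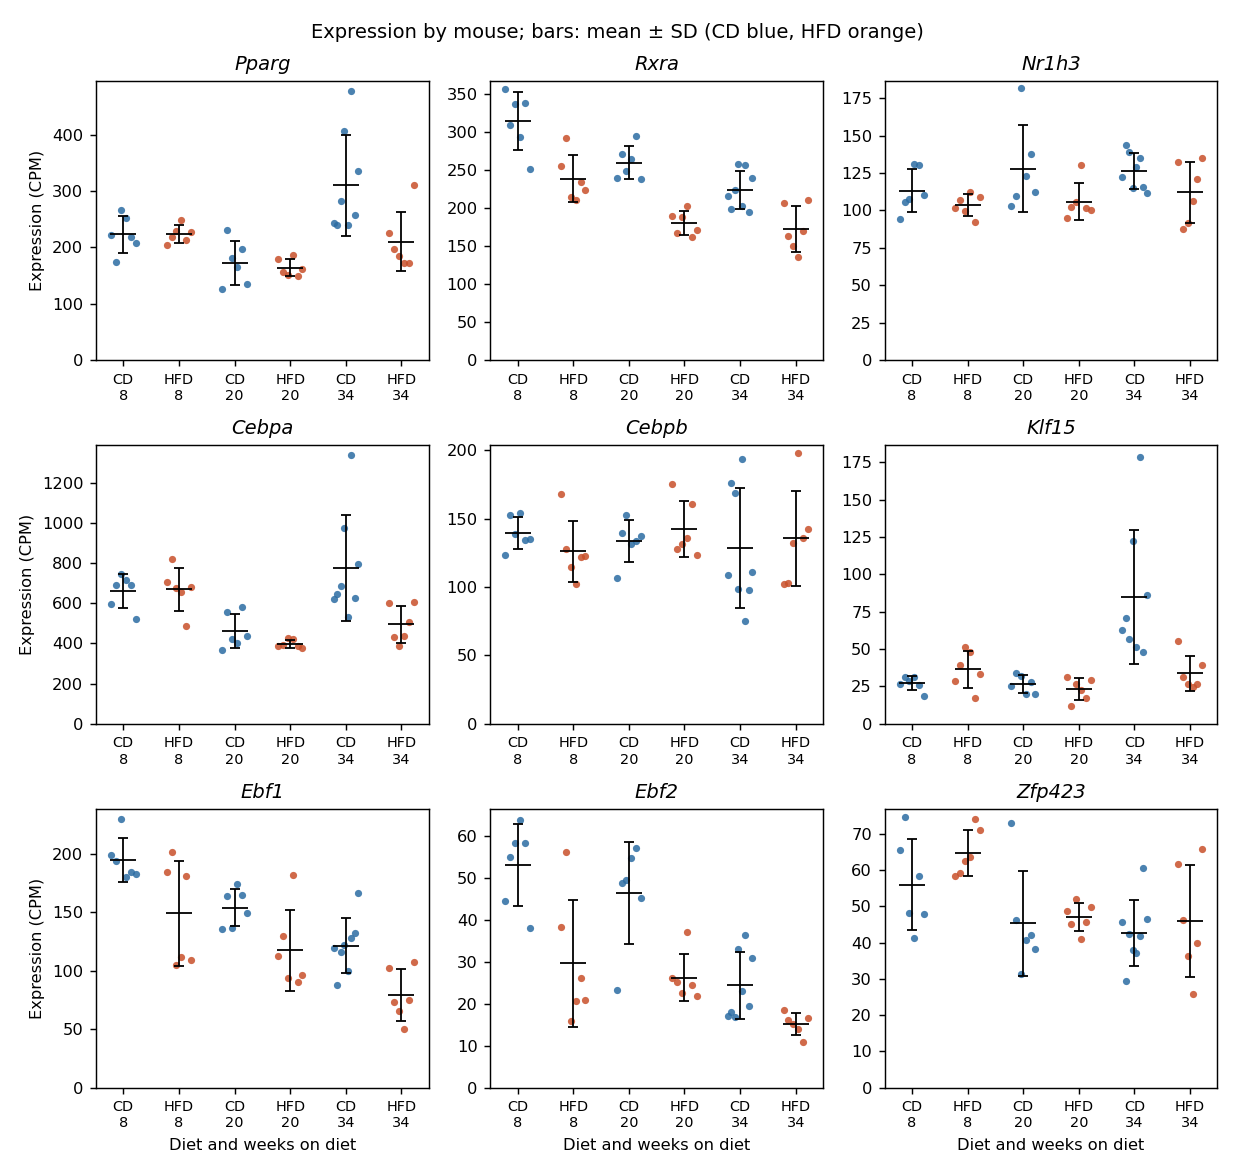
Expression (CPM, linear axes from 0) of each gene in every mouse, with CD in blue and HFD in orange at 8, 20 and 34 weeks on diet, and bars for the mean ± SD of the group. The 6 HFD mice at 20 weeks all sit below the 6 CD mice for Rxra, and the 34 week CD mice reach 178 CPM for Klf15.

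The first question was whether HFD changed these factors at each time. At 8 weeks 3 of the 9 genes were lower in HFD than in CD mice (Rxra, Ebf1 and Ebf2), at 20 weeks the same 3 were lower, and at 34 weeks 6 were lower (these and Pparg, Cebpa and Klf15). None was higher at any time. In such bulk samples fewer adipocytes and less RNA per adipocyte cannot be told apart, and macrophage markers were higher in HFD mice at the same times, as given further on. Calls were made with limma at an adjusted p under 0.05 over all 10343 genes tested, of which 44.9%, 57.0% and 43.2% were called at 8, 20 and 34 weeks in either direction, and 15.1%, 18.7% and 15.7% as lower. The median log2 difference (HFD minus CD) of the 9 genes was -0.12, -0.22 and -0.54, beside 0.11, 0.14 and 0.07 for all genes tested. TMM scaling moved the median of all genes by -0.11, -0.19 and -0.09 and the share of calls that were higher in HFD from 66.3%, 67.1% and 63.6% to 49.9%, 46.4% and 50.4%, and none of the called differences of the 9 genes changed direction with it.

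**Figure D2:**
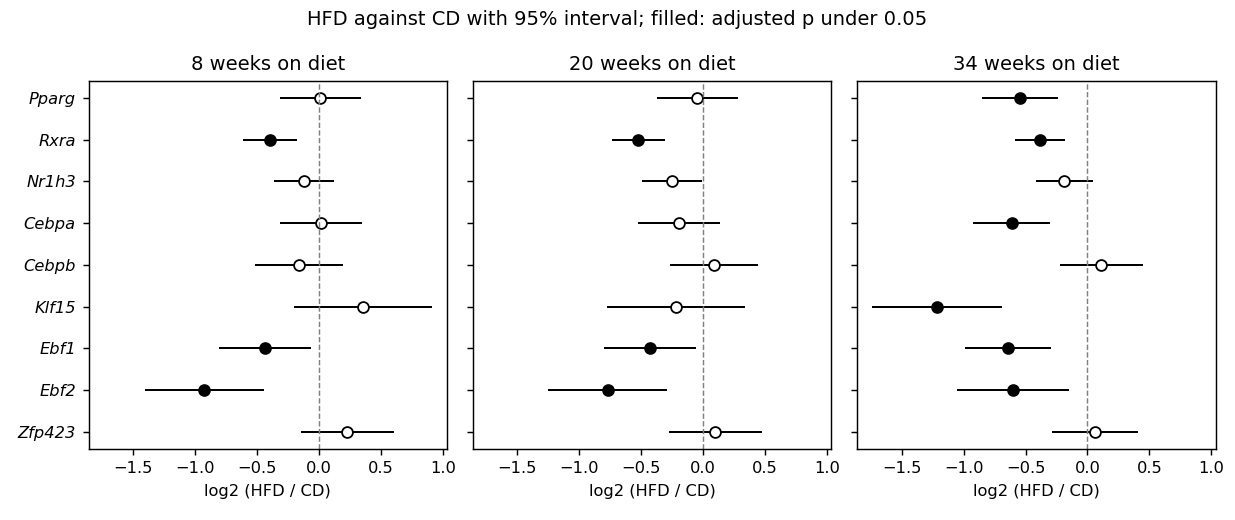
The log2 difference between HFD and CD mice (x axis) of each gene at 8, 20 and 34 weeks, with its 95% interval from limma; filled points had an adjusted p under 0.05. The filled points are 3, 3 and 6 in number and all lie left of 0.

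Rxra, the common partner of the nuclear receptors, was lower in HFD mice at each time. At 8 weeks the CD mice had 251 to 356 CPM with a median of 323, and the HFD mice 210.4 to 292 CPM with a median of 229. At 20 weeks the CD mice had 237 to 294 CPM (median 256) and the HFD mice 161 to 203 CPM (median 180.05). At 34 weeks the values were 195 to 258 CPM (median 219) in CD and 136 to 211 CPM (median 166) in HFD mice. The diets did not overlap at 20 weeks, as for 37.2% of all genes tested (11.1% with HFD mice lower), and overlapped at 8 and 34 weeks, where 22.8% and 2.46% of all genes did not. The log2 difference was -0.40 ± 0.10 (SE), -0.52 ± 0.10 and -0.38 ± 0.10 (limma, adjusted p = 0.0025, 6.2e-05 and 0.0020), and all 6 HFD mice were below the CD mean each time. Of the other RXR genes, named after their values were seen, Rxrb was not called at any time, and Rxrg differed by -0.71 at 20 weeks and by -0.54 at 34 weeks (adjusted p = 0.00093 and 0.0087) and by -0.10 at 8 weeks (adjusted p = 0.67).

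Ebf2 showed the largest diet difference of the 9 genes at 8 weeks. The CD mice had 38.2 to 64.0 CPM (median 56.8) and the HFD mice 15.8 to 56.3 CPM (median 23.5), with 4 of the 6 HFD mice below all CD mice. At 20 weeks the CD mice had 23.4 to 57.3 CPM (median 49.3) and the HFD mice 21.97 to 37.2 CPM (median 24.9). At 34 weeks the CD mice had 16.9 to 36.6 CPM (median 21.2) and the HFD mice 10.9 to 18.6 CPM (median 15.7). The groups overlapped at each time. The log2 difference was -0.93 ± 0.23 (SE), -0.77 ± 0.23 and -0.60 ± 0.22 (limma, adjusted p = 0.0020, 0.0054 and 0.025). At 34 weeks the call was lost without CD mouse 4 (adjusted p = 0.057), CD mouse 6 (0.062) or HFD mouse 5 (0.070).

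Ebf1, its close relative, was also lower in HFD mice at each time. It ranged from 179.9 to 229.8 CPM in CD and from 105 to 202 CPM in HFD mice at 8 weeks, with medians of 189 and 146. No HFD mouse lay near that median: 3 of 6 were below all CD mice (105, 109 and 112 CPM). The others, at 181, 185 and 202 CPM, lay within the CD range. At 20 weeks the CD mice had 136 to 174 CPM (median 157) and the HFD mice 90.7 to 182 CPM (median 105), with 5 of 6 HFD mice below all CD mice and 1 above them all. At 34 weeks the CD mice had 87.6 to 166 CPM (median 121) and the HFD mice 49.96 to 108 CPM (median 74.2). The log2 difference was -0.43 ± 0.18 (SE), -0.43 ± 0.18 and -0.64 ± 0.17 (limma, adjusted p = 0.047, 0.041 and 0.0029). The first 2 calls are close to the threshold: with each mouse left out in turn the adjusted p ranged from 0.017 to 0.14 at 8 weeks and from 0.0067 to 0.10 at 20 weeks, and passed in 3 and 4 of 12 fits.

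Pparg, Cebpa and Klf15 were not called for diet at 8 and 20 weeks and were lower in HFD mice at 34 weeks. For Pparg the CD mice had 239.9 to 478 CPM at 34 weeks (median 269.8) and the HFD mice 172 to 311 CPM (median 191), with 5 of 6 HFD mice below all CD mice. The log2 difference was -0.54 ± 0.15 (SE; limma, adjusted p = 0.0037), after 0.01 ± 0.16 at 8 weeks (95% interval -0.31 to 0.33) and -0.05 ± 0.16 at 20 weeks (-0.37 to 0.27). Cebpa had 530.1 to 1339.9 CPM in CD mice and 388 to 608 CPM in HFD mice at 34 weeks, with medians of 666 and 471. Its log2 difference was -0.61 ± 0.15 (SE; limma, adjusted p = 0.0017), after 0.02 ± 0.16 (95% interval -0.31 to 0.34) and -0.20 ± 0.16 (-0.52 to 0.13). At 20 weeks all 6 HFD mice were below the CD mean of Cebpa, and its difference was called by edgeR (-0.41, adjusted p = 0.049) and by limma with array weights (-0.28, 0.0064), while it was -0.39 with TMM factors (0.055) and -0.38 with DESeq2 (0.065).

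Klf15 had the largest difference of the 9 genes at 34 weeks. The 8 CD mice had 48.4 to 178 CPM (median 67.1) and the 6 HFD mice 24.4 to 55.2 CPM (median 28.9), so that 6 of 8 CD mice were above all HFD mice. The log2 difference was -1.22 ± 0.25 (SE; limma, adjusted p = 0.00042), a 2.32-fold lower level in HFD mice. At 8 weeks it was 0.35 ± 0.27 (adjusted p = 0.29; 95% interval -0.20 to 0.90) and at 20 weeks -0.22 ± 0.27 (0.51; -0.77 to 0.33). The change of the diet difference from 8 to 34 weeks was itself called for these 3 genes, at -1.57 ± 0.37 (SE) for Klf15, -0.63 ± 0.22 for Cebpa and -0.55 ± 0.21 for Pparg (limma, adjusted p = 0.0020, 0.030 and 0.049), where 28.8% of all genes tested were called and 15.9% in this direction. With TMM factors, and with no filter, fewer of these 3 genes were called for this change. For a change from 8 to 20 weeks limma called 0 of the 9 genes (0 at an unadjusted p under 0.05, and 0 by edgeR and DESeq2). Of all 10343 genes limma called 4.49% (464), edgeR 484 and DESeq2 851. From 20 to 34 weeks limma called 0 as well, with 2 at an unadjusted p under 0.05, 0 by edgeR and 1 by DESeq2. Of all genes limma then called 10.5% (1089), edgeR 1272 and DESeq2 1502.

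The CD mice 4 and 6 of 34 weeks were the highest for all 3 genes, with 122 and 178 CPM of Klf15, 406 and 478 CPM of Pparg and 972 and 1339.9 CPM of Cebpa. Without both mice, a choice made after their values were seen, the 34 week differences were -0.90 for Klf15, -0.41 for Cebpa and -0.36 for Pparg (limma, adjusted p = 0.0043, 0.016 and 0.038), and that of Ebf2 was no longer called (-0.42, adjusted p = 0.15). The change from 8 to 34 weeks was then called for Klf15 (-1.26, adjusted p = 0.0044) and not for Cebpa (-0.42, 0.074) or Pparg (-0.37, 0.14). Over fits that left out 1 mouse each it was called for Klf15 in all 26 fits, for Cebpa in 22 and for Pparg in 8.

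Cebpb, Nr1h3 and Zfp423 were not called for diet at any time. Cebpb, the early inducer, lay between 74.8 and 198 CPM over all mice, with log2 differences of -0.16 ± 0.17 (SE), 0.09 ± 0.17 and 0.11 ± 0.16 at 8, 20 and 34 weeks (limma, adjusted p = 0.46, 0.67 and 0.59). Its exons share 312 bases (20.7% of their length) with Tmem189 on the opposite strand, and reads in these bases cannot be told apart if the counting ignored strand. Zfp423 lay between 25.7 and 74.5 CPM, with differences of 0.23 ± 0.18, 0.10 ± 0.18 and 0.06 ± 0.17 (adjusted p = 0.30, 0.66 and 0.785). Nr1h3 lay between 87.5 and 182 CPM, with differences of -0.12 ± 0.11, -0.25 ± 0.11 and -0.19 ± 0.11 (adjusted p = 0.41, 0.060 and 0.16). The call of Nr1h3 at 20 weeks depended on the scaling, since its difference was -0.45 with TMM factors (adjusted p = 0.0037) and -0.41 with median-of-ratios factors (0.0067).

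The second question was how the factors changed with time on each diet, where time on diet and age cannot be told apart. In CD mice no gene was called between 8 and 20 weeks, where 3.58% of all genes were (limma). At an unadjusted p under 0.05 there were 3 genes, with differences of -0.52 for Cebpa, -0.39 for Pparg and -0.27 for Rxra, with adjusted p-values of 0.058, 0.18 and 0.14. The count tests of edgeR and DESeq2 also called 0 of the 9 genes, and limma with array weights called 4 (these 3 and Zfp423). Over all genes these settings called 388, 590 and 1543, beside 370 in the main fit. Between 20 and 34 weeks 3 genes rose in CD mice and 2 fell, where 62.5% of all genes were called, 41.1% as higher and 21.4% as lower at 34 weeks. Klf15 rose by 1.53 ± 0.25 (SE) on the log2 scale, 2.88-fold, from a range of 19.8 to 34.0 CPM to one of 48.4 to 178 CPM. Pparg rose by 0.82 ± 0.15 and Cebpa by 0.71 ± 0.15 (limma, adjusted p = 5.4e-06 for Klf15, 1.5e-05 and 0.00014), while Ebf2 fell by 0.91 ± 0.22 (adjusted p = 0.00057) and Rxra by 0.22 ± 0.10 (0.049). The last call passed in 5 of 14 fits that left out 1 mouse each.

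In HFD mice 4 genes were lower at 20 than at 8 weeks and none was higher, where 36.5% of all genes were called and 15.3% as lower. Cebpa fell by 0.74 ± 0.16 (SE) on the log2 scale, Zfp423 by 0.45 ± 0.18, Pparg by 0.45 ± 0.16 and Rxra by 0.40 ± 0.10 (limma, adjusted p = 0.00081, 0.047, 0.026 and 0.0034). The call of Zfp423 was lost in each of the 12 fits that left out 1 mouse (adjusted p of 0.052 to 0.088), and that of Pparg without 8 week mouse 4 (0.052) or 20 week mouse 5 (0.053). Between 20 and 34 weeks Ebf1 fell by 0.57 ± 0.18 and Ebf2 by 0.74 ± 0.23 (adjusted p = 0.016 for both), where 30.2% of all genes were called and 12.5% as lower. The Ebf1 call was lost without 20 week mouse 4 (0.065) or 34 week mouse 4 (0.068), and that of Ebf2 without 20 week mouse 4 (0.051). Klf15 differed by 0.53 ± 0.27 over the same interval in HFD mice (adjusted p = 0.14).

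From 8 to 34 weeks Ebf1, Ebf2, Rxra and Zfp423 fell on both diets. In CD mice they fell by 0.69, 1.13, 0.49 and 0.38 on the log2 scale (limma, adjusted p = 0.00057, 4.2e-05, 5.6e-05 and 0.047), where 64.7% of all genes were called, 40.1% as higher and 24.6% as lower. In HFD mice they fell by 0.90, 0.80, 0.47 and 0.55 (adjusted p = 0.00011, 0.0043, 0.00029 and 0.011), where 52.5% of all genes were, 20.8% as lower. Klf15 rose by 1.49 and Pparg by 0.44 in CD mice (adjusted p = 7.5e-06 and 0.0099), and Cebpa fell by 0.44 in HFD mice (0.021), a call lost without 8 week mouse 2 (0.058) or 34 week mouse 3 (0.060). The call of Zfp423 in HFD mice was lost without 34 week mouse 4 (0.055). The Zfp423 call in CD mice passed in 6 of 14 fits that left out 1 mouse, and the Pparg call was lost without CD mice 4 and 6 (0.25, adjusted p = 0.092) and with TMM factors. These comparisons share groups of mice with the diet comparisons above. With TMM factors the share of calls that were higher at the later time went from 65.7% to 51.2% (CD, 34 against 20 weeks), from 62.0% to 51.0% (CD, 34 against 8), from 58.8% to 47.9% (HFD, 34 against 20) and from 60.4% to 48.8% (HFD, 34 against 8).

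On the log2 scale, the order of the 6 group means was led by 34 week CD mice for Pparg, Cebpa, Klf15 and Nr1h3, and by 8 week CD mice for Rxra, Ebf1 and Ebf2, each of which ended in 34 week HFD mice. For Nr1h3 the 34 and 20 week CD mice differed by 0.0046 (adjusted p = 0.97), and the mean CPM was higher at 20 weeks (128 against 127). Most neighbours in these orders did not differ beyond their spread. Where neighbours differed in both diet and time, the share of all genes called was 35.6% (34 week CD against 8 week HFD mice), 46.7% (20 week CD against 8 week HFD), 56.3% (8 week CD against 20 week HFD), 58.3% (34 week CD against 20 week HFD), 69.5% (8 week CD against 34 week HFD) and 69.6% (20 week CD against 34 week HFD). For Klf15 the first step, from 34 week CD to 8 week HFD mice, was 1.14 on the log2 scale (limma, adjusted p = 0.0010), and the other 4 steps were not called. For Pparg the same first step was 0.43 (adjusted p = 0.023). For Cebpa only the step from 8 week CD to 34 week HFD mice was called (0.42, adjusted p = 0.019), for Rxra that from 34 week CD to 20 week HFD mice (0.31, 0.0072), and for Ebf1 that from 20 to 34 week HFD mice (0.57, 0.016). Ebf2 had 2 called steps, from 20 week CD to 8 week HFD mice (0.71, adjusted p = 0.013) and from 34 week CD to 34 week HFD mice (0.60, 0.025). No neighbours differed for Cebpb, Nr1h3 or Zfp423, and the highest and lowest groups of Cebpb differed by 0.21 (adjusted p = 0.27). The highest and lowest groups were called for Zfp423 (8 week HFD against 34 week CD mice, 0.61, adjusted p = 0.0057) and for Nr1h3 (34 week CD against 8 week HFD mice, 0.28, 0.039).

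Markers of other cell types moved with diet beside these genes. Of all genes tested 44.9%, 57.0% and 43.2% were called for diet at 8, 20 and 34 weeks. Of 12 macrophage markers 11 were measured, and 8, 9 and 11 of them were higher in HFD mice at 8, 20 and 34 weeks and none lower (limma). Their summed level was 377 to 1845 CPM in CD and 1147 to 3574 CPM in HFD mice at 8 weeks, 983 to 3635 and 5174 to 10422 CPM at 20 weeks, and 1219.6 to 13798 and 5862 to 17352 CPM at 34 weeks. Csf1r, a defining receptor of macrophages, was at 0 in no mouse. Of the 9 progenitor and fibroblast markers 8 passed the filter on low values, of which 6, 8 and 4 were higher, and 6, 5 and 5 of 6 endothelial markers were. The 6 markers of lipid-associated macrophages had the largest median differences of the marker lists (2.88, 5.11 and 2.55), with 6, 6 and 5 of them higher. Of 5 mural markers 4, 4 and 2 were higher, and of the 3 mesothelial markers tested 2, 0 and 0. Of the 8 adipocyte markers 1, 7 and 7 were lower and 1, 1 and 0 higher. The T cell and B cell markers were at or near 0, with at most 5.82 CPM in sum. The part of the other cells in the differences was not tested.

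With the mean macrophage marker level as a covariate, 1, 0 and 0 of the 9 genes were called for diet at 8, 20 and 34 weeks. Of all 10343 genes tested 3673, 2508 and 719 were called with it, beside 4648, 5894 and 4468 without it. The covariate moved with diet: at 20 weeks its highest CD value was 7.93 and its lowest HFD value 8.31. At 20 weeks diet and macrophage content therefore cannot be told apart in this fit. The diets overlapped in the covariate at 8 weeks (CD up to 6.77, HFD from 6.11) and at 34 weeks (CD up to 9.65, HFD from 8.40). Its group means were still higher in HFD mice (6.88 against 5.49, and 9.32 against 7.69), so the fit separates diet and macrophage content there only in part. The one call was Ebf2 at 8 weeks (-0.58, limma, adjusted p = 0.045), and Klf15 differed by -0.88 at 34 weeks (0.051). Within groups, Rxra and the macrophage mean had a Pearson r of -0.62 over the deviations of the 38 mice from their group means (rho = -0.68, and r = -0.61 without the 2 farthest mice). For the other genes the r with the macrophage mean was -0.58 (Cebpa), -0.55 (Pparg), -0.54 (Ebf1), -0.51 (Ebf2), -0.36 (Klf15), -0.20 (Nr1h3), -0.13 (Zfp423) and 0.24 (Cebpb). Without the 2 farthest mice it was -0.42 (Cebpa), -0.43 (Pparg), -0.56 (Ebf1), -0.51 (Ebf2), -0.17 (Klf15), -0.22 (Nr1h3), -0.11 (Zfp423) and -0.07 (Cebpb). Rxra had -0.63 with the progenitor and fibroblast mean. The r with the adipocyte mean was 0.73 for Rxra, 0.71 for Ebf1, 0.67 for Cebpa and 0.55 for Pparg. It was 0.46 for Zfp423, 0.39 for Klf15, 0.37 for Ebf2, 0.25 for Nr1h3 and -0.45 for Cebpb. Without the 2 farthest mice it was 0.36 for Zfp423, 0.31 for Klf15, 0.43 for Ebf2, 0.30 for Nr1h3 and -0.22 for Cebpb. For Rxra, Ebf1, Cebpa and Pparg it was then 0.72, 0.69, 0.63 and 0.50. Both values of a mouse come from the same library, so these correlations are given as a description. In the 34 week CD group, mice 4 and 6 had macrophage means of 6.85 and 6.08, where mouse 5 had 9.65. Mouse 3 of that group had 6.84, with 56.6 CPM of Klf15 beside 122 and 178 CPM in mice 4 and 6.

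**Figure D3:**
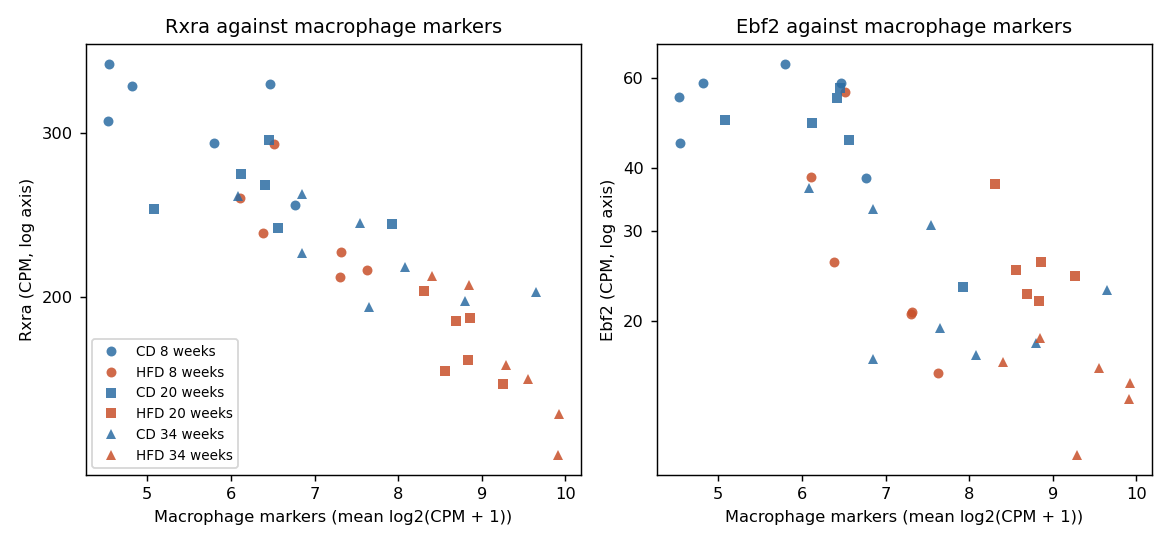
Rxra (left) and Ebf2 (right) in CPM on a log axis against the mean log2(CPM + 1) of 11 macrophage markers, 1 point per mouse, with diet by colour and weeks on diet by shape. The 2 mice with the highest macrophage means are 34 week HFD mice (9.92 and 9.91), followed by a 34 week CD mouse (9.65).

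Some of the 9 genes varied together between mice of one group. Over the 38 mice, the deviations from group means of Pparg and Cebpa had r = 0.75, those of Cebpa and Klf15 r = 0.74 and those of Pparg and Klf15 r = 0.65 (0.66, 0.65 and 0.58 without the 2 mice farthest out). Rxra went with Ebf1 (0.72), Cebpa (0.69) and Ebf2 (0.64), while Ebf1 and Klf15 had r = 0.04. Cebpb had r = -0.49 with Zfp423, the lowest of the 36 pairs, whose median was 0.25. All values of a mouse share its library and scaling.

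**Figure D4:**
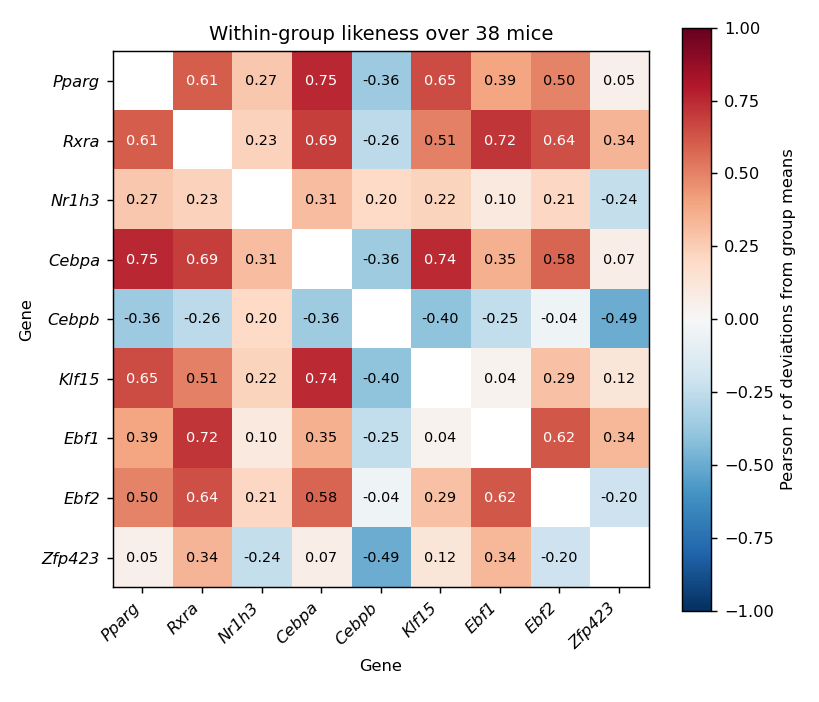
Pearson r between each pair of the 9 genes over 38 mice, computed on deviations of log2(CPM + 1) from the group means; red is positive and blue negative. Pparg, Cebpa and Klf15 form pairs of 0.65 to 0.75, and Cebpb is mostly negative.

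**Figure D5:**
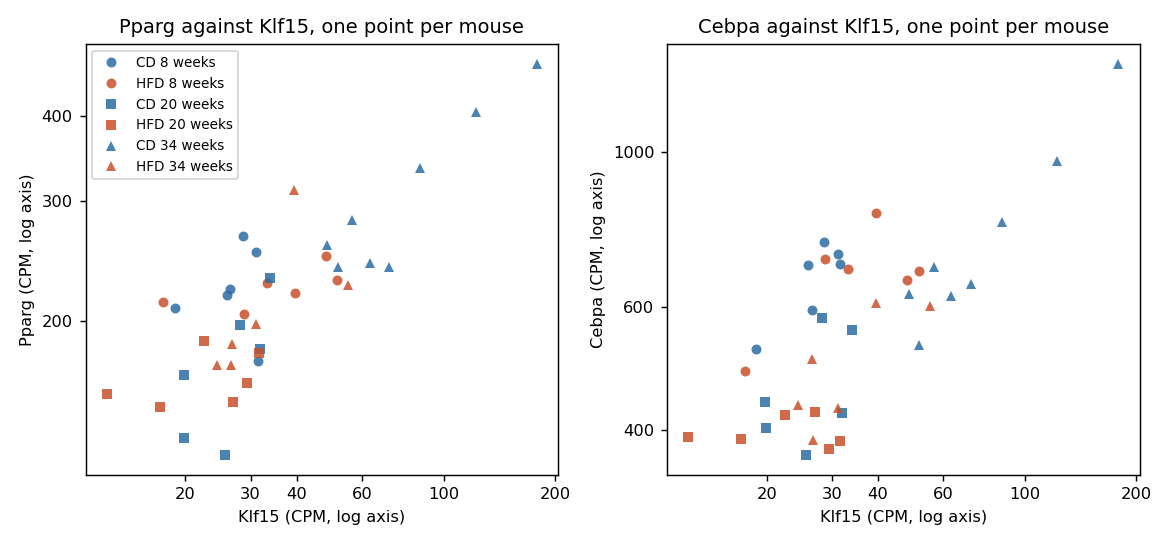
Pparg (left) and Cebpa (right) against Klf15, all in CPM on log axes, 1 point per mouse, with diet by colour and weeks on diet by shape. The 34 week CD mice extend to 178 CPM of Klf15 and 478 CPM of Pparg.

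Over all mice, the gene most like Pparg and most like Klf15 was in both cases Foxo1, a forkhead factor restrained by insulin (r = 0.87 for each, and 0.70 for each over deviations from group means, n = 38). Pparg was next most like Zfp503 and Atl2 (0.86 each), and Klf15 was next most like Slc37a4, the glucose 6-phosphate transporter, and Sumf2 (0.86 each). Cebpa was most like Entpd6, Mkrn2 and Ppp2r5a (0.89, 0.89 and 0.88). Rxra was most like Dbt (0.93), a subunit of the complex that breaks down branched-chain keto acids, then Adhfe1 (0.92) and Fitm2 (0.91), which acts in lipid droplet formation. Ebf1 was most like Mical3 (0.96), Sik2 (0.94), a salt-inducible kinase, and Pard3 (0.93), and Ebf2 was most like Fam13a (0.94), Por (0.93), the electron donor of microsomal P450 enzymes, and Negr1 (0.92). Zfp423 was most like Lgalsl (0.88), Mprip (0.84) and Ddr1 (0.82). The highest r over all mice was lower for Nr1h3 (Mrpl45 0.82, Hacl1 0.80, Adh1 0.78) and Cebpb (Snrnp70 0.64, Hilpda 0.60, Hnrnpc 0.59). Over deviations from group means these genes had 0.84, 0.77 and 0.76 with Zfp423. They had 0.81, 0.82 and 0.71 with Nr1h3, and 0.67, 0.67 and 0.62 with Cebpb.

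Genes around these factors were counted in lists, beside a median log2 difference of 0.11, 0.14 and 0.07 for all genes at 8, 20 and 34 weeks. Of all genes tested 44.9%, 57.0% and 43.2% were called at these times, 15.1%, 18.7% and 15.7% as lower. Of the calls over all genes 66.3%, 67.1% and 63.6% were higher in HFD mice. The counts of every list below stand beside these shares. Of 28 measured target genes of PPARG in fat cells 6, 16 and 16 were lower and 4, 3 and 2 higher in HFD mice (limma), with medians of -0.15, -0.58 and -0.57. With TMM factors 8, 16 and 17 were lower and 1, 3 and 1 higher. The most lowered at 20 weeks were Cfd, which encodes adipsin, from 19946 ± 4759 (SD, n = 6) to 1307 ± 662 CPM (log2 difference -4.03, adjusted p = 2.3e-08), and Acaca, the acetyl-CoA carboxylase of fatty acid synthesis (-2.13, 1.5e-05). Pdk4, a brake on glucose oxidation, and Aqp7, a glycerol channel, were the most raised (1.56 and 0.85, adjusted p = 0.0041 and 1.4e-05). Pparg itself differed by -0.05 at 20 weeks. Adipoq, Plin1, Cidec, Lipe, Pnpla2 and Slc2a4 belong both to these targets and to the 8 adipocyte markers. The medians of the adipocyte markers were -0.29, -0.72 and -0.60 at 8, 20 and 34 weeks. Whether the targets fell with adipocyte content or with PPARG activity was not tested.

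Of the 13 LXR target genes tested 6, 6 and 6 were higher and 1, 3 and 5 lower, with medians of 0.33, 0.11 and 0.28, the second of which was -0.09 with TMM factors (5, 6 and 5 higher, 3, 4 and 5 lower). Pltp, the phospholipid transfer protein, was higher at 20 weeks by 2.84 and Scd2, a fatty acid desaturase, by 2.30 (adjusted p = 4.9e-07 and 0.00091), while Fasn, the fatty acid synthase, and Srebf1, the factor that drives lipid synthesis, were lower (-1.70 and -0.78, adjusted p = 0.0039 and 0.0025). Scd2 was higher by 3.34 at 8 weeks and lower at 34 weeks (-1.62, limma, adjusted p = 3.5e-05 and 0.014), where Pltp differed by 1.94 and 1.31. Of 20 coregulators of PPARG 2, 4 and 3 were higher and 6, 4 and 2 lower (medians -0.30, 0.05 and -0.03, the second of which was -0.14 with TMM factors). With TMM factors 2, 2 and 2 of them were higher and 10, 8 and 3 lower. Prdm16, which directs brown and beige fat, was higher at 20 weeks (2.29 ± 1.08 CPM in CD and 8.46 ± 3.12 CPM in HFD mice, SD, n = 6, log2 difference 1.51, adjusted p = 4.9e-07), and Ppargc1a and Ncoa1, both coactivators, were lower (-0.77 and -0.62, adjusted p = 0.0019 and 0.0033).

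Of 26 other factors listed as activating, a role not tested here, 1, 7 and 5 were higher and 9, 11 and 8 lower (medians -0.12, -0.18 and -0.07). With TMM factors 1, 5 and 3 were higher and 12, 14 and 8 lower. Egr2 and Nr4a1, both immediate early factors, were the most raised at 20 weeks (1.25 and 1.18, limma, adjusted p = 0.0011 and 0.0035), and Stat5a, a mediator of cytokine and growth hormone signals, and Mlxipl, the glucose-sensing ChREBP, were the most lowered (-1.45 and -1.13, adjusted p = 2.3e-08 and 6.8e-06). Of 15 factors that restrain fat cell formation 1, 2 and 3 were higher and 3, 4 and 3 lower (medians -0.06, -0.16 and -0.12), and with TMM factors 1, 1 and 1 higher and 4, 6 and 5 lower. They were led at 20 weeks by Hes1 and Klf3 (0.99 and 0.54, adjusted p = 0.00070 and 0.0070) and by Irf4 and Nr2f2 (-1.06 and -0.94, 0.0087 and 0.00072). Of 12 brown and beige genes listed as dependent on EBF2 and PRDM16, Prdm16 itself among them, 7 passed the filter on low values. Of these 3, 2 and 2 were higher and 2, 2 and 0 lower (medians 0.25, 0.32 and -0.18). With TMM factors 3, 2 and 1 were higher and 2, 2 and 0 lower (medians 0.16, 0.15 and -0.26). Beside Prdm16 and Ppargc1a these genes were led at 20 weeks by Cox7a1, a subunit of the respiratory chain (1.12, adjusted p = 0.00018), and Ppara, the fatty acid sensing receptor (-0.52, 0.045). Cox7a1 was low at 20 weeks, with a mean of 1.54 CPM in CD and 4.49 CPM in HFD mice.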

How the data were processed

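Perigonadal adipocytes of 38 mice were profiled by polyA RNA-seq. Per the methods, the authors aligned reads to mm10 with STAR 2.5.2b, counted them on GENCODE vM2 exon unions with featureCounts of Subread 1.5.1 and dropped genes without an Entrez identifier. The labels list 114 samples, 3 technical replicates per mouse. The deposited CPM table has 1 column per mouse, and each column sums to 1000000, whereas TMM scaling, which the methods name, would make these sums differ. All CPM values (100%) were whole multiples of the value of 1 read within 0.1 reads, which is worth 0.0646 to 0.108 CPM. Groups came from the sample labels, which name diet and weeks. Nothing in the labels says which mice shared a cage or a batch.

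CPM were transformed to log2(CPM + 1), and 10343 genes with a mean above 2.0, all 9 factors among them, were tested with limma 3.58.1 (mean-variance trend, R 4.3.3) in a fit of all 6 groups with 32 residual degrees of freedom and Benjamini-Hochberg adjustment. Fold changes are on the log2(CPM + 1) scale, which understates changes of low genes. The design had taken the values for TMM-scaled CPM. Alternatives were a pseudocount of 0.25, no filter, TMM and median-of-ratios scaling, edgeR 4.0.16 (quasi-likelihood) and DESeq2 1.42.0 on the recovered reads, array weights, each time alone, a block for the mouse number, the macrophage marker mean as covariate and each mouse left out. On the recovered reads edgeR called 4521, 6042 and 4478 genes for diet at 8, 20 and 34 weeks, and limma on CPM 4648, 5894 and 4468. Levels per kb used GENCODE M21 exon unions. Genes named as alike are the 3 with the highest Pearson r over all mice, without predicted genes, and named list genes are the 2 most raised and 2 most lowered called ones at 20 weeks, of which 1 is not reported here. The factors, lists and markers were chosen with earlier results of these data known. Adgre1 and 8 other listed symbols were not found by name and are not analysed here. Gene counts do not separate the isoforms of Pparg or the protein forms of C/EBP beta.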

Additional observations from a re-analysis of the deposited data

Results flagged for a closer look

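Of 54 combinations of gene and group, 3 had a mouse that stood far from the others of its group by Dixon's criterion, which chance meets in about 1 in 20 groups. These were the CD mouse 1 of 20 weeks for Ebf2 (23.4 CPM, the lowest of its group) and the HFD mouse 4 of 20 weeks for Ebf2 (37.2 CPM) and for Nr1h3 (130.4 CPM), the highest of its group for both. The change of the diet difference between 8 and 34 weeks was called by limma for Klf15 (-1.57), Cebpa (-0.63) and Pparg (-0.55). With TMM factors, and with no filter, fewer of these genes were called.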

How the results depend on the processing

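The called diet differences of the 9 genes kept their direction under every alternative except Ebf1 at 20 weeks with the macrophage covariate (0.051). The cause was not tested for any of the changes given here. The number of genes called moved by over 1.5 times with the macrophage marker mean as covariate, to 1, 0 and 0 for diet at 8, 20 and 34 weeks, 3 for CD mice 34 against 8 weeks, 0, 5 and 0 for HFD mice 20 against 8, 34 against 20 and 34 against 8 weeks, and 3 for the change of the diet difference from 20 to 34 weeks. It moved to 5 for diet at 20 weeks with edgeR and with array weights, to 4 (CD mice 20 against 8 weeks) and 2 (change from 20 to 34 weeks) with array weights, to 1 for the change from 20 to 34 weeks with DESeq2, and to 1 for the change from 8 to 34 weeks with no filter, with TMM factors and without CD mice 4 and 6. Over fits that left out 1 mouse each, the counts ranged from 0 to 1 (CD 20 against 8 weeks), 2 to 4 (HFD 20 against 8), 0 to 2 (HFD 34 against 20), 0 to 1 (change from 20 to 34) and 1 to 3 (change from 8 to 34). Over all genes tested, calls for diet went from 4648 to 7032 at 8 weeks with array weights, from 5894 to 2508 at 20 weeks with the covariate, and from 4468 to 719 with the covariate and 2457 with a fit of that time alone at 34 weeks. For CD mice 20 against 8 weeks they went from 370 to 590 (DESeq2), 831 (covariate) and 1543 (array weights), for HFD mice from 3772 to 426 (covariate) and 6392 (array weights) at 20 against 8, from 3126 to 5016 (array weights) at 34 against 20 and from 5432 to 1441 (covariate) at 34 against 8, and for the change of the diet difference from 464 to 851 (DESeq2) and 4263 (array weights) for 8 to 20 weeks and from 1089 to 3407 (array weights) for 20 to 34. With TMM factors the share of these changes that were upward went from 62.7% to 49.1% (8 to 20 weeks) and from 40.0% to 62.2% (20 to 34).

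Mouse numbers did not pair the mice: deviations of same-numbered mice had r of -0.68 to 0.55 over 90 pairs (median -0.07). With the number as a replicate block, 2, 3 and 5 genes were called for diet at 8, 20 and 34 weeks, with Ebf1 at 8 weeks (adjusted p = 0.055) and Ebf2 at 34 weeks (0.052) lost. It turned the change from 20 to 34 weeks of Cebpb to -0.056 and of Zfp423 to 0.074.

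Of 142 sign changes, 140 were of differences called in neither setting. With TMM factors they were, for diet, Pparg -0.10 and Cebpa -0.10 (8 weeks), Cebpb -0.11 and Zfp423 -0.094 (20) and Zfp423 -0.029 (34); for time, Nr1h3 -0.14 (CD 34 against 20), Nr1h3 -0.031 (HFD 20 against 8), and Cebpb -0.015 and Nr1h3 -0.0017 (HFD 34 against 8); and for the change of the diet difference, Ebf1 -0.077 (8 to 20) and Zfp423 0.065 (20 to 34). With median-of-ratios factors they were, in the same order, Pparg -0.089, Cebpa -0.084, Cebpb -0.067, Zfp423 -0.056, Zfp423 -0.029, Nr1h3 -0.12, Nr1h3 -0.00065, Cebpb -0.0061, Ebf1 -0.050 and Zfp423 0.027. With edgeR they were Pparg -0.11 and Cebpa -0.087 (diet, 8), Cebpb -0.11 and Zfp423 -0.13 (20), Klf15 0.0030 (CD 20 against 8), Nr1h3 -0.18 (CD 34 against 20) and -0.027 (HFD 20 against 8), Ebf1 -0.10 and Ebf2 -0.097 (change 8 to 20) and Zfp423 0.14 (20 to 34), and with DESeq2 Pparg -0.098, Cebpa -0.076, Cebpb -0.070, Zfp423 -0.088, Klf15 0.0070, Nr1h3 -0.16 (CD 34 against 20), Ebf1 -0.077, Ebf2 -0.072 and Zfp423 0.097. With array weights they were Cebpa -0.014 (diet, 8), Zfp423 -0.083 (34), Nr1h3 -0.0050 and Zfp423 0.10 (CD 34 against 20), Ebf2 0.15 and Nr1h3 -0.065 (HFD 20 against 8) and Nr1h3 0.026 (change 8 to 34).

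With the macrophage covariate they were Pparg 0.37, Cebpa 0.26, Cebpb -0.12, Ebf1 0.051 and Klf15 0.26 (diet, 20), Cebpb -0.033 (34), Ebf2 0.017 and Klf15 0.16 (CD 20 against 8), Zfp423 0.0015 (CD 34 against 20), Ebf1 0.055 and Ebf2 0.41 (HFD 20 against 8), Pparg 0.32, Cebpa 0.036, Cebpb -0.13 and Klf15 0.43 (HFD 34 against 8), Pparg 0.11 (change 8 to 20) and Ebf2 -0.0042 (20 to 34). Without CD mice 4 and 6 they were Cebpb -0.057 (diet, 34), Cebpb 0.051 (CD 34 against 20), Cebpa -0.019 (CD 34 against 8) and Cebpb -0.15 (change 20 to 34). The sign changes of differences that the main fit had called were Ebf1 (diet, 20) and Cebpa (HFD 34 against 8), both with the macrophage covariate.

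Over the fits that left out 1 mouse each, differences of uncertain sign ranged, for diet, from -0.049 to 0.11 (Cebpa, 8), -0.058 to 0.064 (Pparg, 8), -0.13 to 0.041 (Pparg, 20), -0.054 to 0.21 (Zfp423, 34) and -0.0044 to 0.21 (Cebpb, 34). For CD mice they ranged from -0.13 to 0.038 (Klf15, 20 against 8), -0.052 to 0.11 (Nr1h3, 34 against 20) and -0.15 to 0.086 (Zfp423, 34 against 20), and for HFD mice from -0.21 to 0.14 (Ebf2) and -0.036 to 0.056 (Nr1h3) at 20 against 8, -0.21 to 0.052 (Zfp423, 34 against 20), and -0.27 to 0.036 (Klf15) and -0.032 to 0.17 (Cebpb) at 34 against 8. The changes of the diet difference ranged from -0.14 to 0.030 (Pparg), -0.13 to 0.11 (Ebf1), -0.026 to 0.36 (Ebf2) and -0.22 to 0.015 (Zfp423) for 8 to 20 weeks, -0.095 to 0.11 (Cebpb), -0.040 to 0.13 (Nr1h3) and -0.18 to 0.11 (Zfp423) for 20 to 34, and -0.047 to 0.080 (Rxra) and -0.12 to 0.0012 (Nr1h3) for 8 to 34. The permutation test planned for a gene under the filter was not run, since none of the 9 was under it.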
